A study of Mus musculus with 36 samples.

Results

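The phosphodiesterases, adenylate cyclases and diacylglycerol kinases of the mouse were taken by symbol from the protein-coding genes of GENCODE M1, as Pde or Adcy followed by a digit, or Dgk. This gave 46 of the 22208 protein-coding genes on chromosomes 1 to 19 and X, of which 26 were Pde, 10 Adcy and 10 Dgk genes. A peak was assigned to a gene when its centre lay in the gene body or within 150 kb of it. The group was put forward because PAX6 peaks had been seen near Pde3a and Dgki, so the counts of peaks at these genes are given as a description, with no test.

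The study mapped the binding of the transcription factor PAX6 in enteric precursor cells (EPCs), the neural crest-derived cells that form the nervous system of the gut. The cells came from ganglionic bowel of 7-day-old (P7) CD-1 mice and were grown in primary culture as neurosphere-like bodies (NLBs), floating aggregates that hold stem cells and their progeny, so the chromatin came from mixed cells. Chromatin immunoprecipitation with sequencing (ChIP-seq) used an anti-PAX6 antibody for 16 libraries in 3 pools (4 in pool 1 and 6 each in pools 2 and 3), with 16 inputs kept before precipitation and 4 mouse IgG libraries, all labelled pool 1. The libraries of a pool were merged into 1 peak list, so the pools are the only replicates, and nothing says which libraries came from separate animals. All groups shared the strain, age, tissue and culture, and the labels give no mutation or treatment. Pools 1, 2 and 3 gave lists of 491, 1032 and 724 peaks, and the IgG libraries a list of 1007. The paper gives read totals with no split by pool, and the files give no read counts, so the depth behind a peak is unknown. A peak does not tell more cells bound from more binding in each cell.

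Most of the members set the level of a few small signalling molecules. Adenylate cyclases make cyclic AMP from ATP, cyclic nucleotide phosphodiesterases break down cyclic AMP, cyclic GMP or both, and diacylglycerol kinases turn the membrane lipid diacylglycerol into phosphatidic acid and so end its signal to protein kinase C. In the gut these messengers act in smooth muscle relaxation, secretion and the excitability of enteric neurons.

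The DNA under the peaks that the results turn on was read from the mm9 genome, and stretches of it are printed here because much of it was repetitive. All are from the plus strand, 5′ to 3′. The set below shows the region that pools 2 and 3 shared at Dgki, the other pool 3 peak of Dgki, and the pool 2 and pool 3 peaks of Pde4d closest to each other. Capitals mark perfect tandem runs, in which a unit of 1 to 6 bases is repeated over at least 20 bp.
Dgki, overlap of the peaks of pools 2 and 3, chr6:37156804-37157070, plus strand: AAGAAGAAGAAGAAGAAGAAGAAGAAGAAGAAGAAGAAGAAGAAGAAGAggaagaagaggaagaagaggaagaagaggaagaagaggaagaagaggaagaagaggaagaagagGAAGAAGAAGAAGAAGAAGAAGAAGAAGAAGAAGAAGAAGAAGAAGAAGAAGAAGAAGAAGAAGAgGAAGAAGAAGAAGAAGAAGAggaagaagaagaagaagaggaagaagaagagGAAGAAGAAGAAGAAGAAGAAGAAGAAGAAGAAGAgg
Dgki, second peak of pool 3, chr6:37232928-37233127, plus strand: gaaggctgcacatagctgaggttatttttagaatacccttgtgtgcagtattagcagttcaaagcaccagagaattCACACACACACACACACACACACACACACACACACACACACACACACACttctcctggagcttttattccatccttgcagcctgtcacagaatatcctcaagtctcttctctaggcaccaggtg
Pde4d, pool 2, chr13:109243223-109243422, plus strand: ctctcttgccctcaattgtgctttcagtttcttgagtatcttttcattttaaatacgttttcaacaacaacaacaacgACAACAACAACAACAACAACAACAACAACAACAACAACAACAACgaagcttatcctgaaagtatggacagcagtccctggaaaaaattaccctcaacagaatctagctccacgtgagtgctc
Pde4d, pool 3, chr13:109355436-109355635, plus strand: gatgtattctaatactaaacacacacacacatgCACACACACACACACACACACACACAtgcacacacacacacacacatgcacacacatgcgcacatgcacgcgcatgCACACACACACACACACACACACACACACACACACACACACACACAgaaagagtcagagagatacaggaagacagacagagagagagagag

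The Dgki overlap was GAA repeats from end to end, the second Dgki peak and the Pde4d peak of pool 3 held CA repeats, and the Pde4d peak of pool 2 an ACA repeat. The next set shows 3 other kinds. Capitals mark the 10-base word that occurred most often in the Pde3a peak of pool 1, then the letters TTCACGC, searched as the core of the paired-domain site, in the Pde2a peak of pool 2. The stretch from the Dgka peak of pool 3 has no capitals because it held no perfect run.
Pde3a, pool 1, chr6:141057251-141057550, plus strand: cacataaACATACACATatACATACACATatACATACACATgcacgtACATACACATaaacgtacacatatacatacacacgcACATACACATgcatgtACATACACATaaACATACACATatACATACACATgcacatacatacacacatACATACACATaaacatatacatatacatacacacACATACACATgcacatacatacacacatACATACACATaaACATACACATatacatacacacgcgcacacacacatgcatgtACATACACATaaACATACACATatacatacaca
Pde2a, pool 2, chr7:108628489-108628688, plus strand: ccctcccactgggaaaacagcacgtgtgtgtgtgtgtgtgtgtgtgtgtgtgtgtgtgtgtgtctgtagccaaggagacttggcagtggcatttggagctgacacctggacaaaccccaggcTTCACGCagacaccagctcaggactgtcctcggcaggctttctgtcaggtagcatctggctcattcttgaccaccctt
Dgka, pool 3, chr10:128246558-128246757, plus strand: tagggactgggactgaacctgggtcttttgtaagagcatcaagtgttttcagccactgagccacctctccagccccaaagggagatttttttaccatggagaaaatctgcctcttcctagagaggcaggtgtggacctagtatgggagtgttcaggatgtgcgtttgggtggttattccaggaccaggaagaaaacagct

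PAX6 peaks lay at 16 of the 46 genes (34.8%), 3 of them with a peak of pool 1, 8 of pool 2 and 11 of pool 3. Of all protein-coding genes, 24.0% had a peak of any PAX6 pool within 150 kb, 5.82% one of pool 1, 11.4% one of pool 2 and 9.78% one of pool 3. The 46 genes were long, with a median body of 103 kb against 15.5 kb for all protein-coding genes. When each peak was taken to fall anywhere on its chromosome with equal chance, 15.3 of the 46 genes (33.3%) were expected to have a PAX6 peak, so the count of genes was close to that expected from their length.

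The count of peaks was 27 against 19.9 expected, a ratio of 1.36, and the ratio over all protein-coding genes was 0.998. Pool 1 had 4 peaks against 4.44 expected, pool 2 had 9 against 8.88, and pool 3 had 14 against 6.56. The ratios were thus 0.901, 1.01 and 2.13, against 0.934, 0.939 and 1.13 over all protein-coding genes in the same pools, so pool 3 was the list in which the 46 genes stood farthest from the expected number. As shares of their lists with Wilson 95% intervals, the peaks were 0.818% in pool 1 (0.319% to 2.08%, against 0.908% expected), 0.884% in pool 2 (0.466% to 1.67%, against 0.872%) and 1.97% in pool 3 (1.17% to 3.27%, against 0.922%). Over the 3 pools together the share was 1.22% (0.838% to 1.76%, against 0.896%). These intervals cover counting error only and are no test, since peaks at Pde3a and Dgki, counted here, led to the choice of the group. Without pool 3, the 46 genes had 13 peaks against 13.3 expected (ratio 0.976) at 9 genes against 11.1 expected. The IgG list, from libraries all labelled pool 1, had 9 peaks against 8.67 expected (ratio 1.04). They lay at 8 genes against 7.69 expected from length, and 11.9% of all protein-coding genes had an IgG peak. Whether this list also serves as the control for pools 2 and 3 is not stated.

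**Figure D1:**
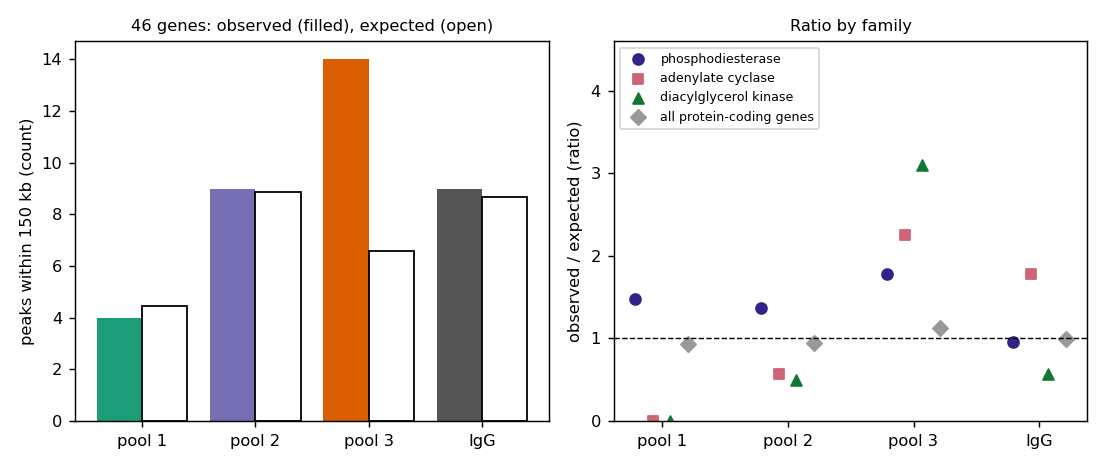
Left, the number of peaks within 150 kb of the 46 genes in each list (filled bars, from 0) beside the number expected from gene length (open bars). Right, the ratio of observed to expected by family and over all protein-coding genes, with a dashed line at 1. Pool 3 had 14 peaks against 6.56 expected, and the ratios of pool 1, pool 2 and IgG over the 46 genes lay from 0.901 to 1.04.

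Among all protein-coding genes the share with a PAX6 peak was higher in the longer classes, so the 46 were also set beside genes of like length. Among the 8 genes over 300 kb, 5 had a PAX6 peak (62.5%), against 50.7% of all genes of that length. From 100 to 300 kb the share was 4 of 15 (26.7%, against 32.8%), from 20 to 100 kb 6 of 18 (33.3%, against 25.3%), and up to 20 kb 1 of 5 (20.0%, against 20.8%). Dgkb, whose body of 753 kb made it the longest gene without a peak (0.990 expected), had none in any list.

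**Figure D2:**
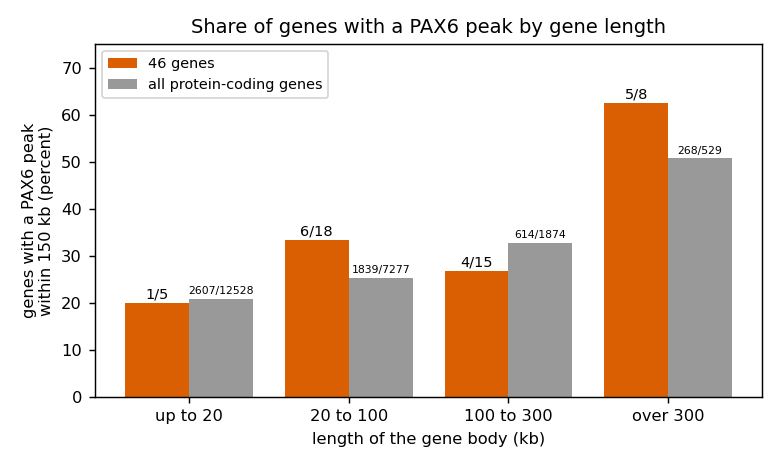
The percent of genes with a PAX6 peak within 150 kb, by length of the gene body in kb, for the 46 genes and for all protein-coding genes. Bars start at 0 and the numbers above them are genes with a peak over genes in the class. In both groups the share was highest over 300 kb, at 62.5% and 50.7%.

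Peaks of at least 2 pools lay at 4 genes, Pde1a and Pde3a with all 3 pools, and Pde4d and Dgki with pools 2 and 3. Of all protein-coding genes, 2.80% had peaks of at least 2 pools and 0.167% of all 3. From the length of the 46 genes, 2.45 of them were expected with at least 2 pools and 0.201 with all 3. Peaks at Pde3a and Dgki led to the choice of the group, so these counts cannot be read as an excess over the expected numbers. These 4 genes held 13 of the 27 peaks. Of the other 12, 7 had peaks of pool 3 only, 4 of pool 2 only and 1 of pool 1 only. Peaks of different pools overlapped at Dgki alone.

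**Figure D3:**
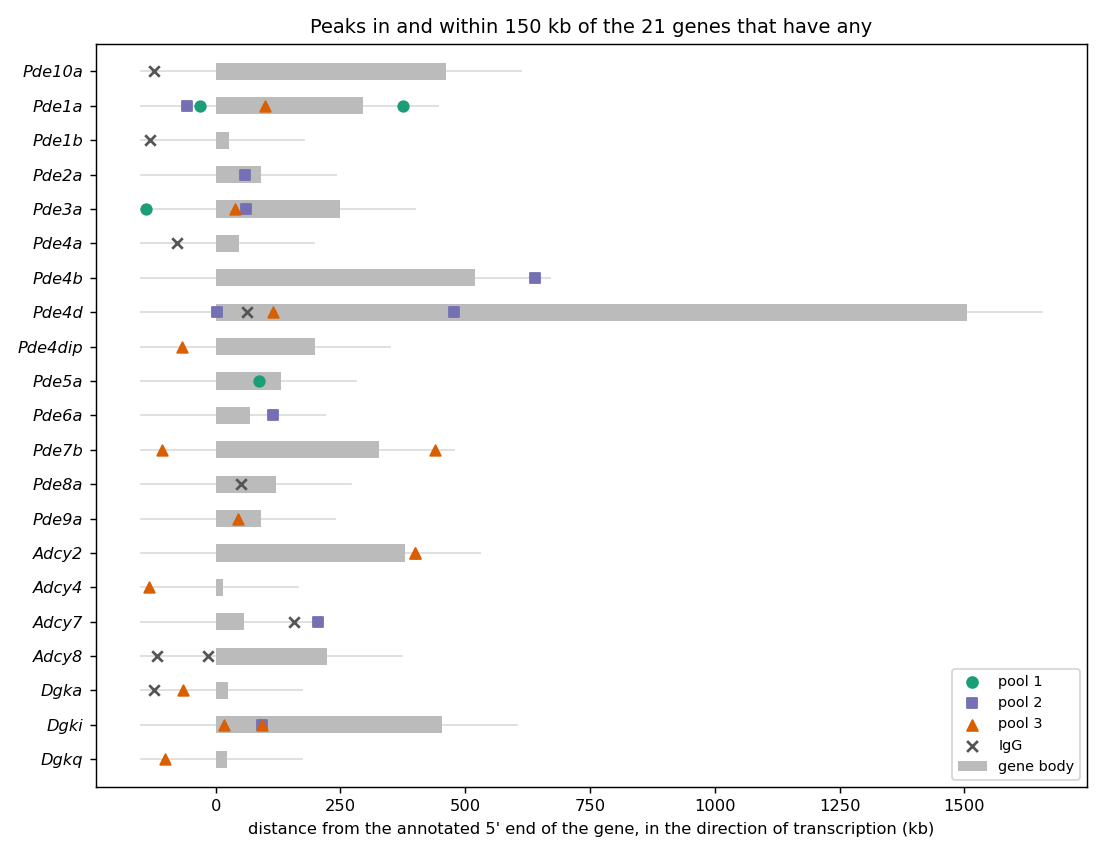
Each row is 1 of the 21 genes with any peak, drawn from its annotated 5′ end in the direction of transcription, with the gene body in grey, the 150 kb on both sides as a line and each peak as a symbol by list. The horizontal axis is in kb. Peaks of all 3 pools are seen at Pde1a and Pde3a, and the symbols of pools 2 and 3 coincide only in Dgki. The pair of pool 3 peaks at Adcy2 is too close to be drawn apart.

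Pde3a encodes a phosphodiesterase that acts on cyclic AMP and is inhibited by cyclic GMP, known from heart and smooth muscle. Its body lies at chr6:141197790-141447872, and with the 150 kb on both sides it had 3 peaks against 0.530 expected. The peak of pool 1 (chr6:141057067-141057736) had a score of 113, the highest of the 491 in its list, and lay 140.4 kb upstream of the closest start of Pde3a in intergenic DNA, with no start of another protein-coding gene closer to it. The group was chosen with this peak known, so neither its rank nor the count of 3 peaks is independent of that choice. The score is the negative log10 of the p-value from the peak caller times 10, and depends on depth, so it is compared only within a list. In pools 2 and 3 the peaks lay in introns, with scores of 63.8 (rank 760 of 1032) and 75.9 (rank 490 of 724), below the median of either list. Their centres were 21.1 kb apart and over 179 kb from the pool 1 peak, so the pools marked 3 separate places. No IgG peak was assigned to Pde3a.

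Dgki encodes the iota form of diacylglycerol kinase, one of the forms with ankyrin repeats, and is known from the nervous system. Its body lies on the minus strand at chr6:36796022-37250184, and with the 150 kb on both sides it had 3 peaks, all of them in the body, against 0.726 expected, and none of IgG. The peaks chr6:37156804-37157662 of pool 2 (859 bp, score 157, rank 40 of 1032) and chr6:37156804-37157070 of pool 3 (267 bp, score 107, rank 340 of 724) had the same first base and overlapped by 267 bp in an intron 92.7 kb from the start. This was 1 of 24 regions that peaks of at least 2 pools shared by at least 1 bp after those on IgG peaks were left out, and the only one at the 46 genes. Such a region lay within 150 kb of 0.261% of all protein-coding genes, a share that makes no allowance for gene length. The paper lists Dgki as a PAX6 target from this same pair of peaks. It also measured RNA of the human gene in human NLBs, and does not name DGKI among the targets found expressed there. Nor is Dgki among the genes it lists for its over-represented motifs. Peaks at Dgki led to the choice of the group, so neither their count nor this region is independent of that choice. Distinct 6-base words made up 3.44% of the word positions in the overlap, all of its bases were purines on the plus strand, and 63.3% lay in perfect runs. By this measure the peaks of pools 3 and 2 ranked as the 5th and 8th least complex of 2219 PAX6 peaks, and the 248 bp AAG run in that of pool 2 was the 3rd longest run of any. The overlap did not reach 50% of both peaks. A further pool 3 peak (score 159, rank 90) lay 16.6 kb from the start, 75.8 kb from the shared region, and held a CA run of 49 bp.

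Pde1a encodes a phosphodiesterase activated by calcium and calmodulin, and had the most PAX6 peaks of the 46 genes, 4 against 0.524 expected. On the minus strand at chr2:79674610-79969632, it had a pool 3 peak 7.69 kb inside its closest start (score 121, rank 213). Upstream in intergenic DNA lay a pool 1 peak at 31.9 kb (score 56.5, rank 377 of 491) and a pool 2 peak at 56.4 kb (score 120, rank 75), 24.5 kb from each other. The other pool 1 peak (score 68.7, rank 116) lay downstream in an intron of Ppp1r1c, whose start was closer. None of the 4 overlapped another, and the gene had no IgG peak.

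Pde4d encodes a phosphodiesterase specific for cyclic AMP and was the longest of the 46, at 1506 kb over its 2 annotation entries (chr13:109240142-110746171), which gave the highest expected number, 1.88. It had 3 PAX6 peaks, all in introns. That of pool 2 at 3.11 kb from a start scored 99.7 (rank 117), the other of pool 2 scored 68.6 (rank 577), and that of pool 3, 88.9 kb from a start, scored 155 (rank 128). An IgG peak (score 83.8, rank 118 of 1007) lay between them, 58.7 kb from the nearest pool 2 peak and 53.5 kb from the pool 3 peak. The closest pair of its PAX6 peaks was 112 kb apart.

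The remaining phosphodiesterases with a PAX6 peak had peaks of 1 pool each. Pde9a, which acts on cyclic GMP, had the peak closest to a start of its own gene, at 1.39 kb and in an intron (pool 3, score 118, rank 250 of 724). Pde4dip encodes myomegalin, a scaffold protein named for its binding to a phosphodiesterase and not itself one, and had a pool 3 peak 67.5 kb upstream with a score of 247 (rank 14), the highest of the 14 in that pool. The closest start to it was that of Sec22b at 54.9 kb. Pde2a, activated by cyclic GMP, had an intronic pool 2 peak 22.9 kb from a start. Pde5a, the target of sildenafil, had an intronic pool 1 peak 86.4 kb from its own start and 78.4 kb from that of Fabp2. Pde7b had pool 3 peaks on both sides, 108 kb upstream and 263 kb from its start on the downstream side, the latter closer to 4933406P04Rik. Pde4b had a pool 2 peak 138 kb from its nearest start, closer to Sgip1, and Pde6a, a subunit of the phosphodiesterase of rod photoreceptors, a pool 2 peak 60.1 kb from its start in an intron of Ppargc1b.

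The 46 genes were grouped by what their products are known to act on or respond to, a grouping made after the peaks had been seen. Phosphodiesterases that act on both cyclic nucleotides had PAX6 peaks at 3 of 8 genes (2.89 genes expected), with 8 peaks against 3.68 expected. Those specific for cyclic AMP had them at 3 of 8 genes (3.33 expected), with 6 peaks against 5.02. Those specific for cyclic GMP had them at 3 of 5 genes (1.32 expected), with 3 peaks against 1.54. The partner subunits Pde6d, Pde6g and Pde6h had none (0.823 expected), and of the 2 that act on no cyclic nucleotide Pde4dip had 1 and Pde12 none. Over the whole family the number was 18 against 11.8 expected, at 10 of 26 genes against 8.84. Peaks at Pde3a led to the choice of the group, and its 3 are among the 18 and among the 8. Neither count can therefore be read as an excess.

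Adenylate cyclases had 4 PAX6 peaks against 3.88 expected, all outside the gene bodies. They lay at Adcy2, Adcy4 and Adcy7, 3 genes against 3.17 expected in the family. These are the 3 members that Gβγ subunits are known to stimulate together with Gαs (4 peaks against 1.30 expected). This grouping was made after the peaks had been seen, so the 4 cannot be read as an excess. The 7 other cyclases had none, among them the calcium-stimulated Adcy1, Adcy3 and Adcy8 (1.13 expected) and the calcium-inhibited Adcy5 and Adcy6 (0.706). The pair of pool 3 peaks at Adcy2 (scores 96.5 and 114) was separated by 178 bp in an intron of 1700001L19Rik, whose start was 2.82 kb and 3.34 kb away, against 399 kb to that of Adcy2. Adcy4 had a pool 3 peak 132 kb upstream (score 183, rank 60), closer to Sdr39u1, and Adcy7 a pool 2 peak 183 kb from its start (score 62.0, rank 815), closer to Nkd1. No PAX6 peak of the family was closest to a start of the cyclase itself.

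Diacylglycerol kinases had 5 PAX6 peaks against 4.25 expected, 3 at Dgki and 1 each at Dgka and Dgkq. Dgka, a calcium-responsive form with EF-hand motifs, had a pool 3 peak 65.5 kb upstream in an intron of Dnajc14 (score 95.2), and an IgG peak 57.1 kb from it. Dgkq had a pool 3 peak 102 kb upstream (score 176, rank 82), closer to Rnf212. In this family 4 of the 5 peaks came from pool 3 (1.29 expected) and 1 from pool 2 (2.01 expected). Of these, 2 of pool 3 and the 1 of pool 2 were at Dgki, whose peaks led to the choice of the group. The pool 3 count can therefore not be read as an excess. Dgkd, Dgkh and Dgkk, the forms with a pleckstrin homology domain, had none (0.850 expected).

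No peak of any list lay at 25 of the 46 genes. They were 12 phosphodiesterase genes (Pde1c, Pde3b, Pde4c, Pde6b, Pde6c, Pde6d, Pde6g, Pde6h, Pde7a, Pde8b, Pde11a and Pde12), 6 cyclases (Adcy1, Adcy3, Adcy5, Adcy6, Adcy9 and Adcy10) and 7 kinases (Dgkb, Dgkd, Dgke, Dgkg, Dgkh, Dgkk and Dgkz). At 5 more (Adcy8, Pde1b, Pde4a, Pde8a and Pde10a) only IgG peaks were found, and at Adcy7, Dgka and Pde4d both kinds. Adcy8 had 2 IgG peaks, 15.6 kb and 117 kb upstream. None of the 27 PAX6 peaks overlapped an IgG peak, as 82 of all 2219 PAX6 peaks did, and the nearest IgG peak assigned to the same gene was 47.4 kb away, at Adcy7.

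By position, 12 of the 27 peaks lay in the bodies of the 46 genes, all in introns, against 7.91 expected, and 15 in the flanks, against 11.98. The bodies that held one were those of 7 genes, and 3.13% of all protein-coding genes had a PAX6 peak in the body. That share makes no allowance for length, and the median body was 103 kb in the 46 genes against 15.5 kb in all. How many genes length alone would give was not computed for bodies. No peak centre fell in an exon, 10 peaks were intergenic and 5 lay in introns of other genes. The flanking peaks stood 8 upstream and 7 downstream. The closest protein-coding start belonged to the member for 16 peaks at 8 genes, and to another gene for 11. Only 3 lay within 10 kb of a start of the member (Pde9a, Pde4d and Pde1a), and the median distance was 88.9 kb. Of the 9 IgG peaks, 2 lay in bodies (3.38 expected), none was within 10 kb of a start, and the median was 117 kb.

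Peaks between 100 and 200 kb from a body show what the 150 kb limit decided. Just inside lay the pool 2 peak of Adcy7 at 147 kb and the pool 1 peak of Pde3a at 140.4 kb. Just outside lay a pool 2 peak 153 kb downstream of Pde3a with a score of 185 (rank 25 of 1032), higher within its list than the assigned pool 2 peak of this gene, and pool 2 peaks at 153 kb from Pde4d and 155 kb from Dgkd. Of the PAX6 peaks, 7 fell in the last 50 kb inside the limit and 8 in the 50 kb beyond it.

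The scores of the 27 peaks stood above the median of their list in 17 cases, at a median percentile of 64.0. In pool 1 it was 3 of 4, in pool 2 it was 4 of 9 and in pool 3 it was 10 of 14, and of the 9 IgG peaks 4. The top 5% of a list held 3 of the 27, at Pde3a (pool 1), Dgki (pool 2) and Pde4dip (pool 3). At a score of at least 100, 13 PAX6 peaks remained against 4.58 expected, 10 of them from pool 3 (3.45 expected). The ratio for all protein-coding genes was then 1.04 over the PAX6 pools and 1.12 in pool 3 alone. No IgG peak was left at the 46 genes (0.288 expected). One limit for all lists keeps more of pool 3, whose median score was 105.6, against 62.05 in pool 1 and 68.98 in pool 2. Peaks at Pde3a and Dgki, which led to the choice of the group, are among the 13 and among those in the top 5%.

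**Figure D4:**
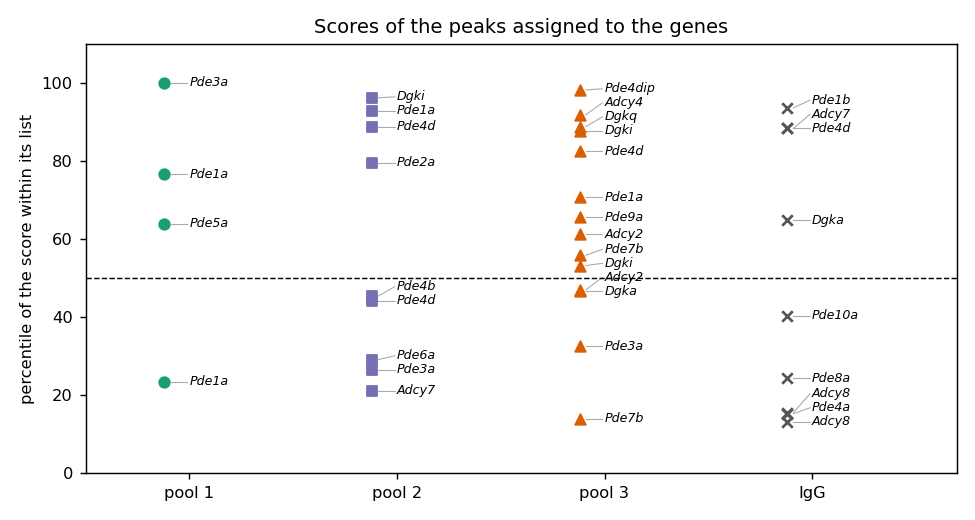
The percentile of each peak's score within its own list (100 is the highest score) for the 27 PAX6 and 9 IgG peaks at the 46 genes, with the gene beside each symbol and a dashed line at the median of the list. In pool 3, 10 of 14 symbols lie above the line, and the Pde3a peak of pool 1 is at 100.

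Repeats were searched in the DNA of the peaks, with measures chosen after the first sequences had been read. A perfect tandem run of at least 20 bp was found in 18 of the 27 peaks (66.7%, Wilson 95% interval 47.8% to 81.4%), in 72.9% of the 2192 other PAX6 peaks, in 72.6% of the IgG peaks and in 12.4% of 25571 windows of 430 bp placed every 100 kb along the genome. Runs of CA or TG were in 12 of the 27 (44.4%), against 55.3% of the other PAX6 peaks, 62.6% of the IgG peaks and 4.00% of the windows. The shares in the other PAX6 peaks and in the IgG peaks lay inside the intervals of the 27 for both measures (27.6% to 62.7% for CA or TG), and the shares in the genome windows lay below them. Low complexity, with distinct 6-base words under 50% of positions, was found in 11 of the 27 (40.7%), 35.9% of the other PAX6 peaks, 38.3% of IgG peaks and 0.567% of the windows. The pools differed in this, since the share was 63.5% over the whole list of pool 3, against 19.4% in pool 1 and 24.8% in pool 2. It was 7 of 14 in the pool 3 peaks at the 46 genes.

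Runs of AC, the commonest kind, were in 43.1%, 49.4% and 52.5% of all peaks of pools 1, 2 and 3. Both AAC runs at the 46 genes, at Pde4d and Pde1a, came from pool 2, where 9.72% of all peaks held such a run, against 0.613% in pool 1, none of 712 in pool 3 and 0.0994% of IgG peaks. The Pde3a peak of pool 1 held no perfect run but 26 copies of ACATACACAT, counted on both strands. This word was in 16.7% of the other PAX6 peaks, 21.8% of the IgG peaks and 0.946% of the windows. It was in 5 of the 27, which include the Pde3a peak that the word was taken from. Whether the repeats had a part in the calling of these peaks was not tested.

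**Figure D5:**
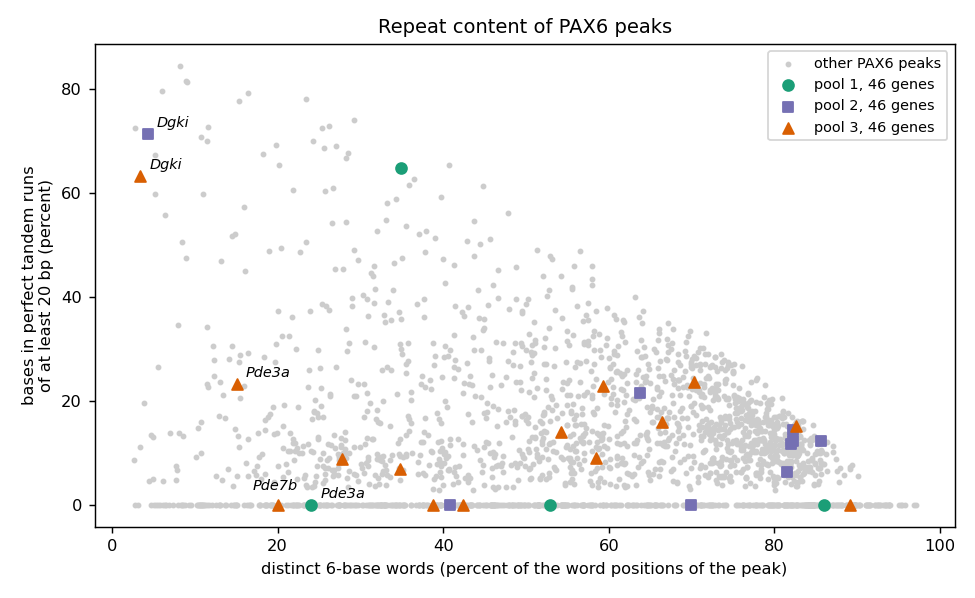
Each symbol is a PAX6 peak, grey where it was not at the 46 genes. The horizontal axis is the percent of 6-base word positions that hold a distinct word, and the vertical axis the percent of bases in perfect tandem runs of at least 20 bp. The Dgki peaks of pools 2 and 3 that overlap lie at the far left, at 4.33% and 3.44%.

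Sequences that PAX6 is known to bind were looked for on both strands. TTCACGC was in 1 of the 27 peaks, the pool 2 peak of Pde2a printed above (score 84.1, rank 212), against 0.456% of the other PAX6 peaks, 0.795% of the IgG peaks and 0.704% of the windows. The homeodomain palindrome, TAAT and its reverse complement with 3 bases between them, was in none of the 27, in 1.00% of the other PAX6 peaks and in 1.51% of the windows. Such a match is a description of the letters and not a site.

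Genes upstream and downstream in the same pathways were taken as a list of 84, of guanylate cyclases, Gα subunits, phospholipases C, the kinases and exchange factors that read cyclic nucleotides, kinase anchors, and the effectors and lipases of diacylglycerol. PAX6 peaks lay at 24 of them (28.6%, against 24.9 genes expected), with 27 peaks against 30.3 expected, so the list as a whole had fewer peaks than its length gives. Pool 1 had 2 (6.72 expected), pool 2 had 16 (13.96) and pool 3 had 9 (9.66), and IgG 16 (13.6). In pool 3, where the 46 genes had over the expected number, these 84 had slightly under it, and the difference between the lists of genes was not tested. The group with the most was that of protein kinases C and D, at 7 of 12 genes (3.86 genes expected) with 10 peaks against 4.77 expected. IgG peaks there numbered 4 against 2.13. In that group, named after its counts were seen, Prkcq had 3 peaks of pool 2, and Prkcb, the one gene of the list with 2 pools, had a peak each of pools 2 and 3 and 3 of IgG. No region shared by pools lay at any of the 84.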

How the data were processed

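PAX6 ChIP, input and IgG libraries were merged by the authors into 4 peak lists. Bowtie aligned the reads to mm9 and MACS called the peaks, and both versions are not given in the sources used here. Each peak has a deposited score, the negative log10 of the MACS p-value times 10. The mm9 coordinates were used with GENCODE M1, and annotation entries of 1 symbol within 1 Mb were merged (47 entries, 46 genes). Peaks off chromosomes 1 to 19 and X were left out. Centres were assigned to every gene within 150 kb, so a peak may count at several genes.

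Expected numbers of peaks are the sum over peaks of the gene window divided by the chromosome length. Expected numbers of genes with a peak are the sum over genes of the chance of at least 1 peak under that placement. They were computed without simulation. Scripts were tested on simulated data. Shares carry Wilson 95% intervals, which cover counting error only. The genes, lists and groupings were chosen with earlier results of these data known, and no test was made over them.

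Full values were given for genes with peaks of at least 2 pools, a shared region, a peak in the top 5% of its list, or a peak within 10 kb of a start. Other genes were named with list and distance, and other genes' starts where they were closer. Alternatives were distances of 100 kb, 50 kb and 0 kb, scores of at least 70 or 100, other overlaps, placements and run lengths, and leaving out each pool. Counting peaks within 1 kb once, keeping only peaks closest to the member, and tandem runs were added after the data were seen. Python 3.11.15, numpy 2.4.6, pandas 2.3.3, scipy 1.17.1, samtools 1.23.1, pysam 0.24.0 and matplotlib 3.10.9 were used.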

Additional observations from a re-analysis of the deposited data

How the results depend on the processing

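Of 72 recomputed values, 50 stayed close to the reported one and 22 moved: a count by over 1.5 times, or the ratio by over 0.682, its SD over the 3 pools. That SD was wide mainly through pool 3, with ratios of 0.901, 1.01 and 2.13 in pools 1, 2 and 3. The ratio of 0.976 without pool 3 therefore counted as close to 1.36, though the peaks were then slightly fewer than the number from length. Within 50 kb, 9 genes and 16 PAX6 peaks (11.9 expected) were counted, and in gene bodies alone 7 genes and 12 peaks (7.91 expected). IgG peaks fell from 9 to 5 within 100 kb (6.91 expected), 3 within 50 kb (5.15) and 2 in gene bodies (3.38). They fell to 3 at a score of at least 70 (2.54 expected) and 0 at 100 or more (0.288). At 100 or more there were 10 genes, 2 with at least 2 pools, and 13 PAX6 peaks (4.58 expected). The ratio was then 2.84, against 1.04 over all protein-coding genes. No expected number of genes was computed for these distances and scores. Keeping only peaks closest to a start of the member, chosen after seeing the data, left 8 genes and 16 peaks.

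When each pool was left out in turn, genes with a peak ranged from 9 to 15, genes with at least 2 pools from 2 to 4, peaks from 13 to 23 and the ratio from 0.976 to 1.64, and shared regions from 0 to 1. The lowest values came without pool 3, and for the genes with at least 2 pools and shared regions also without pool 2. With an overlap of 50% of both peaks there were 0 shared regions. The placement model moved the ratio to 1.32 without N bases and 1.43 over the whole genome. No paired analysis was possible because each pool had 1 merged list. The paper gives read totals but no depth by pool or library, so the absence of a peak does not show the absence of binding.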
